A study of Drosophila melanogaster with 2 samples.

Results

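The genes described here encode the proteins of the cytoplasmic ribosome of *Drosophila melanogaster*. They were chosen by name: protein-coding genes called RpL or RpS with a number and any letter or copy suffix, together with sta, RpLP0, RpLP1 and RpLP2. S6 kinase genes were left out. The rule gave 88 of the 13945 protein-coding genes on the 6 chromosome arms, 50 for the large and 38 for the small ribosomal subunit. RpL7-like, RpL22-like, RpL24-like and RpS28-like were kept apart, and these 4 genes had no summit within 5 kb. RpLP0-like, also left out, had 3 summits within 5 kb and a promoter summit, and the strongest of the 3 (deposited signal 196) was nearest to 14-3-3zeta.

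Chromatin immunoprecipitation followed by sequencing (ChIP-seq) was performed on whole wandering larvae of the third instar, with males and females pooled. The flies were a transgenic line with Brinker carrying green fluorescent protein at its C terminus, and an anti-GFP antibody was used on sonicated chromatin. There was 1 group with 2 replicates, numbered 3 and 4 and labelled as biological. The data are dm6 peak lists: peaks and background for each replicate, a pooled list, and a list filtered by irreproducible discovery rate (IDR). IDR is a measure of how alike peaks rank between replicates. The IDR list holds 3413 peaks, 3380 of them on the arms. Of these 3380, 3244 overlapped an entry in both replicate lists, so an IDR peak was not always listed in each replicate. A summit is the deposited point of highest enrichment in a peak, and its signal is the deposited value, whose scale is not stated. Whole larvae mix all tissues, the protein bound is a fusion, and no untagged or mock precipitation was analysed here. Sequencing depth is unknown from peak lists.

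Brinker is a sequence-specific repressor that keeps targets of Dpp, a BMP-type growth factor, silent where Dpp signalling is low, and it recruits the corepressors Groucho and CtBP. In the wing disc it limits growth. Ribosomal protein genes are among the most strongly transcribed genes of a growing larva, and loss of 1 copy of many of them gives the Minute phenotype of slow development and thin bristles. Their promoters are unusual in flies: transcription starts at a polypyrimidine initiator, the TCT motif, and relies on the TBP-related factor Trf2, helped by the motif-binding proteins M1BP and Dref.

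A Brinker IDR summit lay within 5 kb of 32 of the 88 ribosomal protein genes (36.4%, 95% Wilson interval 27.1 to 46.8), beside 26.9% of all protein-coding genes. The gene's own transcription start site (TSS) was the one nearest to such a summit for 17 members (19.3%, 12.4 to 28.8), beside 12.2% of all protein-coding genes. A summit within 500 bp of a member's own TSS, called a promoter summit below, was present at 19 members (21.6%, 14.3 to 31.3), beside 10.5% of all protein-coding genes. The strongest of these were at RpL7, RpS2 and RpL27. The intervals cover counting error only, and no test of enrichment was made.

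The start regions of 7 members are shown because they carry the strongest promoter summits or differ in sequence from those that do. Each runs from 100 bases before to the 30th base from the TSS on the gene's own strand (Release 6 sequence, dm6 coordinates). Capitals mark TCT words, the DNA replication-related element (DRE), the motif 1 core, the E-box and Brinker sites, whose letters are given further on. RpL7 (chr2L:10200904-10201033, plus strand), RpS2 (chr2L:9897492-9897621, minus strand) and RpL27 (chr3R:25685022-25685151, minus strand) had the 3 strongest promoter summits. RpS9 (chr3L:9511502-9511631, minus strand) had a pair of promoter summits. RpL8 (chr3L:2587356-2587485, plus strand) has Brinker sites close to its summit. RpL3 (chr3R:11221794-11221923, plus strand) and RpL34a (chr3R:26059238-26059367, minus strand) had no entry at the promoter in either replicate.
RpL7: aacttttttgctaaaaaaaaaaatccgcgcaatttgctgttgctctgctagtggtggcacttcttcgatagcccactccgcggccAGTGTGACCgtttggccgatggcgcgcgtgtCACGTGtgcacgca
RpS2: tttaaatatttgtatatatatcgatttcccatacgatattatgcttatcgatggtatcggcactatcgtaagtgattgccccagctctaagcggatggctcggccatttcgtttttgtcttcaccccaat
RpL27: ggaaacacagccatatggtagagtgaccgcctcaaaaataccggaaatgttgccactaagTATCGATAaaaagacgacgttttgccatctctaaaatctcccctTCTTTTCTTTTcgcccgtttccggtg
RpS9: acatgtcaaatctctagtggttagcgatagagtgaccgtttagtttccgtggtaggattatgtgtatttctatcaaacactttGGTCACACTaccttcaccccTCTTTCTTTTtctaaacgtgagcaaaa
RpL8: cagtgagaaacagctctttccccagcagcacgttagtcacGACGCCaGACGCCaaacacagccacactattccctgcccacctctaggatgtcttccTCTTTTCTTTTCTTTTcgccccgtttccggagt
RpL3: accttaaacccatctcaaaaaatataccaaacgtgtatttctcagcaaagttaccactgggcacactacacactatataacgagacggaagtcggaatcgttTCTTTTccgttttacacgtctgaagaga
RpL34a: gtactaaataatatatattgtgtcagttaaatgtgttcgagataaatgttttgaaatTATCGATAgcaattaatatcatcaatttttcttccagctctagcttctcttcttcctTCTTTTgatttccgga
RpL27 and RpL34a both carry a DRE upstream and TCT words after the TSS, yet only RpL27 had a promoter summit. RpS2 carries none of the marked words in this window. RpL7 has a motif 1 core and an E-box but no TCT word.

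**Figure D1:**
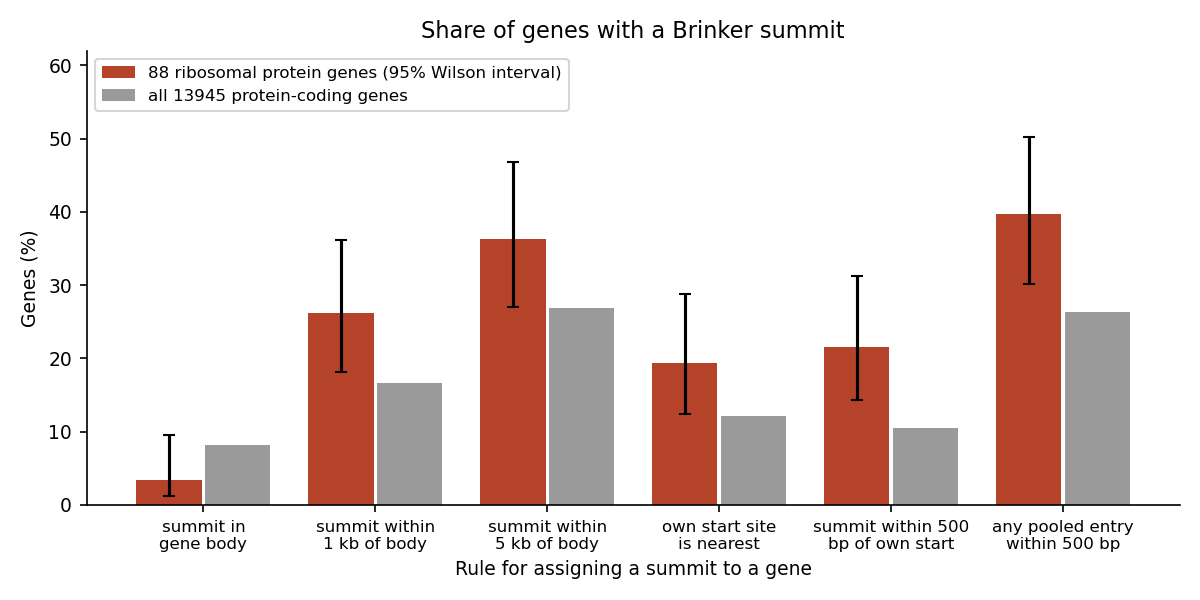
Share of genes (%) with a Brinker summit under 6 assignment rules, for the 88 ribosomal protein genes (left bar of each pair, 95% Wilson interval) and all 13945 protein-coding genes (right bar). Ribosomal protein genes had 36.4% against 26.9% within 5 kb and 21.6% against 10.5% within 500 bp of the gene's own start, but 3.41% against 8.19% inside the gene body.

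How a summit was assigned changed the picture. Inside the gene body a summit was found for 3 members, RpL5, RpLP0 and RpS6 (3.41%, 1.17 to 9.55), beside 8.19% of all protein-coding genes. Ribosomal protein genes are short, with a median length of 1344.5 bp (range 304 to 4677) against 2166 bp for all protein-coding genes. Within 1 kb of the body there were 23 members (26.1%, 18.1 to 36.2), beside 16.7% of all protein-coding genes. Within 10 kb there were 41 (46.6%), and 37.7% of all protein-coding genes. The number of other coding genes with a TSS within 5 kb had the same median, 3, for members and for all protein-coding genes.

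The 5 kb rule linked 55 distinct summits to the 32 members. Of these, 19 had a ribosomal protein gene's TSS as the nearest, 30 had that of another protein-coding gene and 6 that of a noncoding RNA or pseudogene. Promoter summits of members numbered 21, since RpS9 and RpS10b each had 2. Most summits near members lay at some start site: 45 of 55 were within 500 bp of a TSS of any gene (81.8%, 69.7 to 89.8). Over the arms this held for 1505 of the 3380 summits (44.5%). The shares are not matched, since the 55 were chosen for lying near short genes. Of the 36 summits nearest to another gene, 27 were within 500 bp of that gene's TSS, and the median distance was 157 bp.

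**Figure D2:**
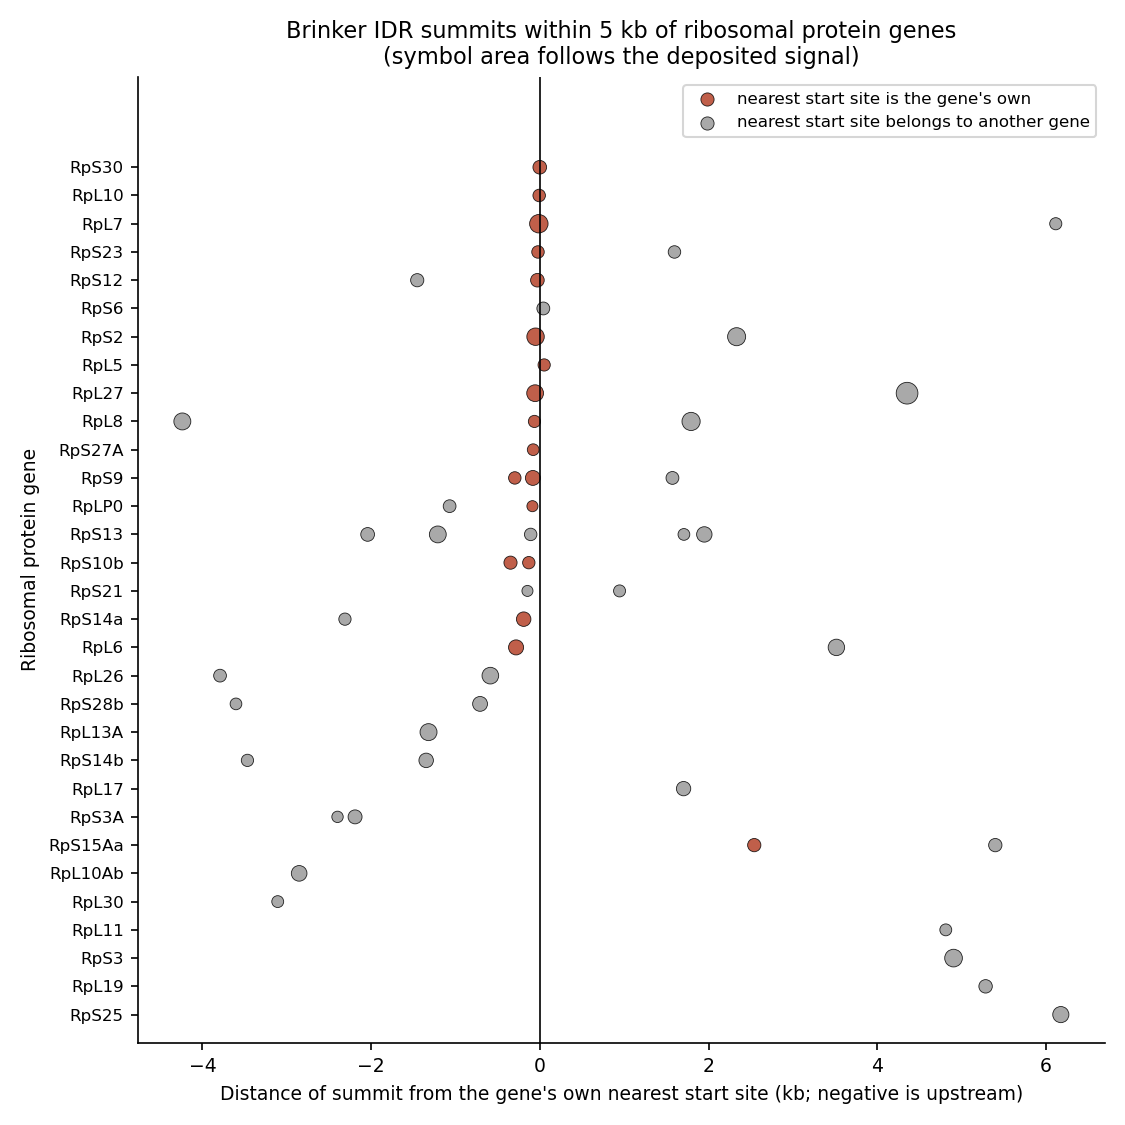
Position of the Brinker IDR summits within 5 kb of 31 of the 32 ribosomal protein genes that have one, in kb from the nearest of the gene's own start sites, with symbol area following the deposited signal. The genes with a promoter summit form the column at 0 kb, and the remaining 13 have summits from 587 bp to several kb away, nearly all nearest to another gene's start site.

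The promoter summits were close to the annotated start. Their distance from the nearest of the member's own TSSs had a median of 79 bp (range 1 to 348). Of the 21, 17 were within 150 bp of that TSS and 19 were upstream of it. The exceptions were RpL5, with its summit 51 bp downstream, and RpS6, with its summit 41 bp downstream. The RpLP0 summit was 88 bp upstream of the nearest of its TSSs, but inside the gene body and downstream of the gene's 5′ end. Pooled signal at the 21 promoter summits had a median of 108 (84.5 to 235), against 133 for the 34 other summits near members and 119 for all summits on the arms. For all promoter summits on the arms the median was 125. By signal they ranked from 402 to 3231 of 3380, with a median rank of 2062. Thus 9 of the 21 promoter summits reached the median of all arm summits, and 22 of the 34 others did.

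Among large subunit genes, RpL7 had the strongest promoter summit, with a signal of 235 at chr2L:10200784-10201199, 12 bp upstream of its TSS. In the separate replicate lists the signal was 99.6 in replicate 3 and 134 in replicate 4. The TSS of Ripalpha, transcribed in the opposite direction, is 30 bp from that of RpL7, so the summit can be assigned to either. RpL27 followed, with 195 pooled, 96.4 in replicate 3 and 99.9 in replicate 4, at chr3R:25684899-25685314 and 56 bp upstream. RpL6 had 157 pooled, 75.0 in replicate 3 and 78.0 in replicate 4, with a summit 282 bp upstream at chr3R:31596278-31596693. At RpL6 and RpL27 the replicates were nearly level, whereas at RpL7 replicate 4 was higher.

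The other large subunit promoters were weaker. RpL10, which encodes a protein that joins the 60S subunit late in its maturation, had 108 pooled, 47.6 in replicate 3 and 60.2 in replicate 4. RpL5, whose protein binds 5S rRNA together with RpL11, had 104 pooled, 48.7 in replicate 3 and 62.9 in replicate 4. RpL8, whose protein sits near the peptidyl transferase centre, had 103 pooled, 54.9 in replicate 3 and 53.5 in replicate 4. That replicate 3 entry had its own summit 110 bp from the IDR summit, and replicate 3 listed no summit within 100 bp. RpLP0, which encodes the base of the ribosomal stalk that anchors RpLP1 and RpLP2, had 84.8 pooled, 45.6 in replicate 3 and 49.5 in replicate 4. These 4 signals were all below the median of all arm summits. The only IDR summit of RpL11 was 3330 bp beyond its gene (97.9), and RpLP1 and RpLP2 had no IDR summit within 5 kb. At the RpL11 promoter replicate 3 alone listed an entry, 71.0 at rank 1621.

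Among small subunit genes, RpS2, known in flies as string of pearls and needed for egg chamber development, had the strongest promoter summit, at chr2L:9897395-9897810 and 51 bp upstream. Its signal was 210.2 pooled, 101 in replicate 3 and 107 in replicate 4. RpS9 had 154 pooled at 83 bp and 108 at 297 bp upstream, and both overlapped the same replicate entries, 73.5 in replicate 3 and 83.5 in replicate 4. Entries with a summit within 100 bp of the outer one were weaker, 40.9 in replicate 3 and 43.5 in replicate 4. RpS14a had 145 pooled, 73.3 in replicate 3 and 67.3 in replicate 4. All 3 were above the median of arm summits at their strongest summit.

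RpS30, made as a fusion with a ubiquitin-like protein, had its summit 1 bp from the TSS, with 129 pooled, 68.6 in replicate 3 and 69.2 in replicate 4. That replicate 4 entry had its own summit 136 bp from the IDR summit. The replicate 4 entry with a summit within 100 bp was weaker, 44.1. RpS12, known in flies for its part in cell competition, had 128 pooled, 58.7 in replicate 3 and 70.4 in replicate 4. RpS10b had summits at 348 and 131 bp upstream, with pooled signals of 119.6 and 106, and both overlapped the entries of 81.5 in replicate 3 and 46.3 in replicate 4. Among small subunit genes with an IDR promoter summit, that entry of replicate 3 was the highest after RpS2, and that of replicate 4 was the lowest listed. Replicate 3 listed no summit within 100 bp of the outer RpS10b summit. Within 100 bp of the inner one, the replicate 4 entry was weaker, 41.7. RpS6, the phosphorylation target of S6 kinase, had 115 pooled and 69.8 in replicate 3, and replicate 4 listed no overlapping entry. Its nearest TSS was that of the pseudogene CR33222, 12 bp from the summit, against 41 bp for the gene's own.

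RpS23, whose protein is part of the decoding centre, had 108 pooled, 43.2 in replicate 3 and 67.6 in replicate 4. RpS13 had 108 pooled, 76.1 in replicate 3 and 50.2 in replicate 4, and the summit was 84 bp from the TSS of the COP9 signalosome gene CSN8 and 109 bp from its own. At both genes the replicates differed by more than 1.5 times, RpS13 in favour of replicate 3 and RpS23 in favour of replicate 4. RpS27A, made as a ubiquitin fusion, had 95.3 pooled and 64.5 in replicate 3, with no overlapping entry in replicate 4. RpS21 had 84.5 pooled, the weakest of the promoter summits, 40.3 in replicate 3 and 52.9 in replicate 4. Its summit was 145 bp from the TSS of CG3104 and 147 bp from that of RpS21.

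**Figure D3:**
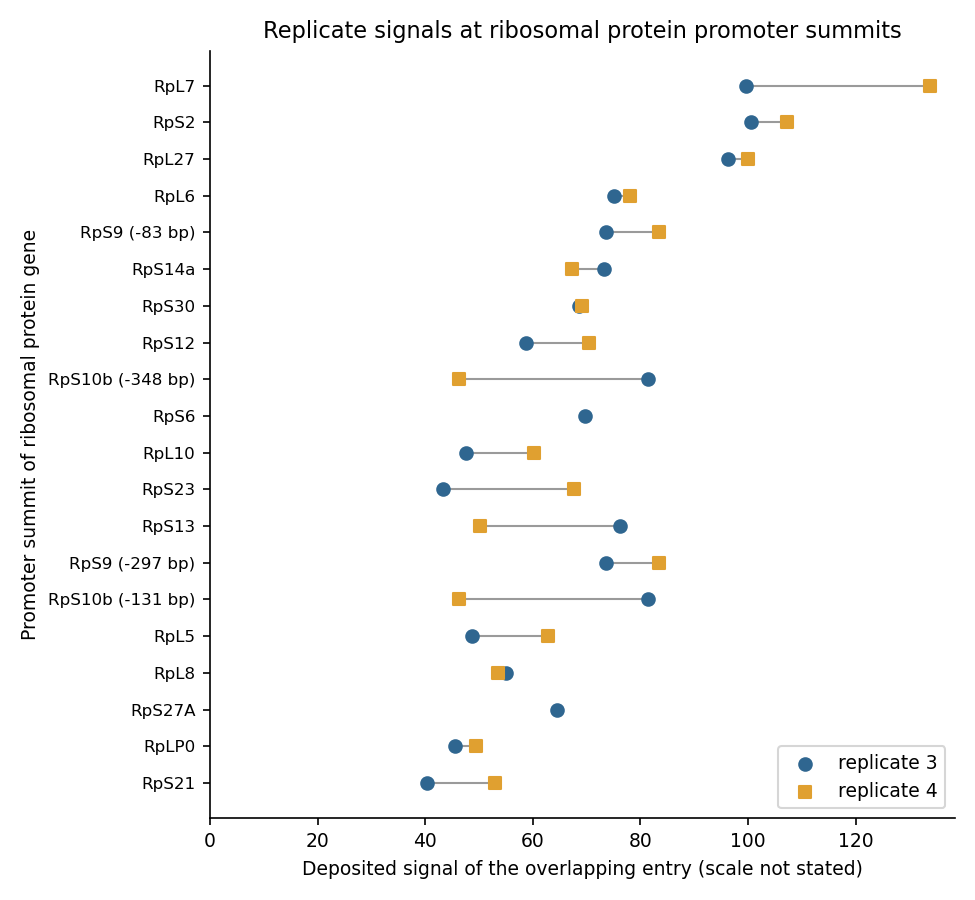
Deposited signal (scale not stated) of the entries of replicate 3 and replicate 4 that overlap 20 of the 21 promoter summits, ordered by pooled signal from strongest at the top, with a line joining the replicates. RpL7, RpS2 and RpL27 lie near or above 100 in both replicates, and RpS6 and RpS27A have a replicate 3 point only.

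The replicates gave similar but not equal values. Over the 19 promoter summits with an entry in both lists, the log2 ratio of replicate 3 to replicate 4 had a median of -0.12 (SD 0.42, range -0.66 to 0.81), and 14 of 19 were within 1.5 times. Replicate 4 was higher at 14 and replicate 3 at 5. Over the 32 other member summits with both entries the median was 0.14 (SD 0.43), with replicate 3 higher at 19. All arm summits with both entries had a median of 0.03 (SD 0.55, n = 3244). A common scale of the replicate lists is assumed by these ratios and was not tested, and the 19 include 2 pairs of summits that share entries. Between the replicate entries the summit moved by a median of 67 bp, at most 164 bp, at the promoter summits.

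Taking the strongest entries of each replicate alone, in the number of the IDR list, 24 members had a promoter summit in replicate 3 (27.3%), beside 12.7% of all protein-coding genes. In replicate 4 there were 21 (23.9%), beside 9.97% of all protein-coding genes, and in both there were 12 (13.6%), beside 7.45%. Of the 19 members with an IDR promoter summit, 13 were among the strongest of replicate 3, 17 among those of replicate 4 and 11 in both. Those missing from replicate 3 included RpL5, RpL10, RpLP0, RpS21 and RpS23. RpS6 and RpS27A were missing from replicate 4. At 13 members (14.8%) a replicate listed a promoter entry where the pooled list held none within 500 bp. RpL30 was the 1 of these with an entry in both replicates: at its promoter replicate 3 listed a signal of 128 at -87 bp from the TSS and at rank 389, and replicate 4 listed 97.3 at -49 bp and at rank 680. The other 12 had an entry in 1 replicate. The strongest of them were RpS20 (122 at rank 441), RpLP1 (105 at rank 645) and RpL28 (87.7 at rank 992) in replicate 3, and RpL23 (76.2 at rank 1088) was the 1 from replicate 4. The cause was not tested. Replicate entries without a pooled entry were not counted over all protein-coding genes, so whether 13 members is unusual is unknown.

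The remaining 13 members counted within 5 kb had no promoter summit. For 12 of them every summit was nearest to another gene. The strongest of these were at RpS3, with 216 at 143 bp from the TSS of CG4408, and at RpL13A, with 199 at 3 bp from that of Dph4, a gene of diphthamide synthesis. RpL26 had 192 at CG3902, RpS25 had 180.3 at the growth regulator gene Tctp and RpL10Ab had 169 at CG5946. RpS28b had 153 at l(1)G0320, RpS14b had the 145 of RpS14a, and RpS3A had 135 at pan, which encodes the TCF factor of Wg signalling. RpL17 had 142 and its nearest TSS was a snoRNA's, RpL19 had 125 at CG2765, RpL11 the 97.9 at EloC, an elongin subunit gene, and RpL30 had 97.7 near a long noncoding RNA. Replicate signals at the summits of these 12 genes ran from 46.5 to 112 in replicate 3 and from 43.9 to 126 in replicate 4, and RpL19's had no entry in replicate 4. RpS15Aa was the exception: its own TSS was nearest, but 2542 bp away, to a summit 541 bp beyond the gene, with 122 pooled, 70.8 in replicate 3 and 52.9 in replicate 4.

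Even members with a promoter summit often had a stronger one at a neighbour. The summit with the highest signal near any member, 326, lay 4354 bp downstream of the RpL27 TSS and 147 bp from that of CG4743. RpL8 had 229 at the adaptor gene dos and 199 nearest to the kinase gene msn, 3037 bp from its TSS, against 103 at its own. RpS2 had 225 at Bka against 210.2 at its own, and RpS13 had 197 at Pp2A-29B, a phosphatase subunit gene, against 108. RpS13 had 5 summits within 5 kb, the most of any member. Genes counted by the 5 kb rule therefore include summits at the promoters of neighbours.

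By subunit, 18 of 38 small subunit genes had a summit within 5 kb (47.4%, 32.5 to 62.7) and 14 of 50 large subunit genes did (28.0%, 17.5 to 41.7). Promoter summits were at 12 small subunit genes (31.6%, 19.1 to 47.5) and 7 large subunit genes (14.0%, 6.95 to 26.2). The shares over all protein-coding genes were 26.9% within 5 kb and 10.5% at the promoter. Both lie inside the intervals of the large subunit genes and below those of the small subunit genes. The intervals of large and small subunit genes overlap, and the difference was not tested. By chromosome arm, promoter summits were at 6 of 17 members on 2L, 1 of 19 on 2R, 6 of 14 on 3L, 3 of 22 on 3R, 0 of 1 on 4 and 3 of 15 on X. Over all protein-coding genes the promoter shares were 11.3% on 2L, 8.84% on 2R, 13.6% on 3L, 9.38% on 3R, 32.5% on 4 and 8.52% on X.

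Weaker entries were found at further members. An entry of the full pooled list, peaks and background together, lay within 500 bp of the TSS of 35 members (39.8%, 30.2 to 50.2), beside 26.4% of all protein-coding genes. Entries of both replicates lay there for 31 members (35.2%, 26.1 to 45.6), beside 21.3% of all protein-coding genes. Replicate 3 listed one at 47 members (53.4%), beside 32.2% of all protein-coding genes, and replicate 4 at 32 (36.4%), beside 26.4%. The 47 include 16 members with an entry in replicate 3 only, and the 32 include 1 with an entry in replicate 4 only. Neither replicate listed one at 40 (45.5%). The splits into 1 replicate only or neither were not counted over all protein-coding genes. The 16 members with a pooled entry and no IDR promoter summit had signals of 32.6 to 82.3, against a minimum of 82.6 among the IDR peaks on the arms. Members with an IDR promoter summit had the same rank in the pooled and IDR lists, such as 3231 at RpS21. If the IDR list is the top of the pooled list by signal, the lower values follow by construction.

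RpL37A was nearest to entering the IDR list by signal, with 82.3 pooled, 48.4 in replicate 3 and 38.6 in replicate 4. Further entries, among members with no IDR summit within 5 kb, were those of RpL15, with 71.5 pooled, 31.9 in replicate 3 and 46.9 in replicate 4. RpL12 had 69.6 pooled, 24.3 in replicate 3 and 47.7 in replicate 4, and RpS15 had 69.1 pooled, 35.0 in replicate 3 and 36.2 in replicate 4. Replicate 4 was higher at RpL12 and RpL15, and the replicates were close at RpS15. In all, 56 members had no IDR summit within 5 kb and 53 no pooled entry at the promoter. The 40 with no promoter entry in either replicate include RpL3, RpL4, RpL22, RpL24, RpL32, RpL36, RpL40, RpL41, RpS3, RpS16, RpS18, RpS26 and sta, the gene of a small subunit protein. RpL32, known as rp49, is a common reference gene for expression measurements in flies.

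**Figure D4:**
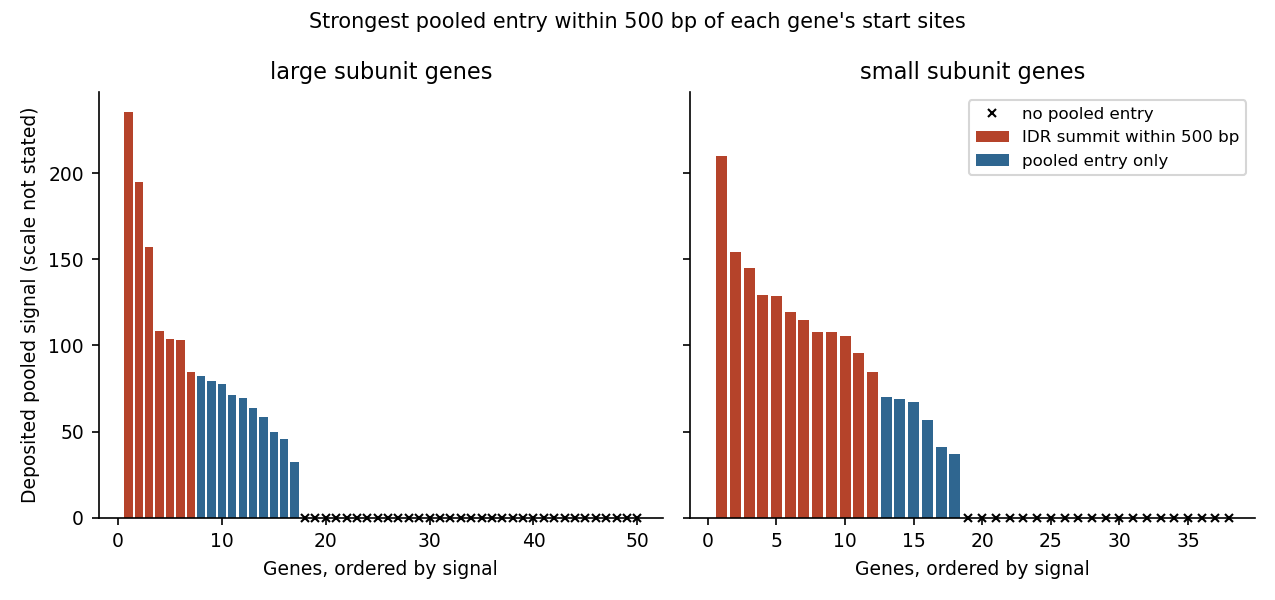
Strongest pooled signal (scale not stated) within 500 bp of the start sites of each of the 50 large and 38 small subunit genes, ordered by signal, with crosses for genes with no pooled entry. IDR promoter summits stand at 7 large and 12 small subunit genes, and 16 further genes have a pooled entry only, all at or below 82.3.

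Several ribosomal proteins are encoded by 2 genes, and 9 such pairs were compared. In flies RpS10a and RpS19b are known for expression in the germline, while RpS10b and RpS19a are expressed broadly. A promoter summit was at 1 copy in 2 pairs, RpS10b and RpS14a, at both copies in 0 (0%, upper limit 29.9) and at neither in 7. A pooled promoter entry was at exactly 1 copy in 7 of the 9. Counted by gene, such an entry was at 39.8% of all members and 26.4% of all protein-coding genes. Promoter summits were at 21.6% of all members and 10.5% of all protein-coding genes. Shares of genes are not comparable with counts of pairs, so these counts do not show that pairs differ from other genes. The single copies with an entry included RpL10Ab (79.7), RpL37-1 (32.6), RpS10b (119.6), RpS14a (145), RpS15Aa (67.2) and RpS19a (36.8). RpS10b and RpS19a, with the entry, are the broadly expressed copies of their pairs. The germline copies RpS10a and RpS19b had no promoter entry in the pooled list or either replicate. The RpS19a entry was at pooled rank 11952, with 57.3 in replicate 3 and no entry in replicate 4. Expression was not measured here, and a relation to it was not tested. RpL34a and RpL34b had no promoter entry, and RpS28b only an entry of 31.5 in replicate 3. RpS14a and RpS14b are near-identical neighbours on X, but their start regions differ in sequence, with a DRE only at RpS14a. How reads were divided is uncertain where the 2 genes are alike.

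Sequence at the annotated starts was searched in windows of 250 bases before and 50 bases from the TSS. The TCT words (the word CCTTTC, the word CCTTTT, the word TCTTTC and the word TCTTTT), on the sense strand within 20 bases of the TSS, were in 62 of 88 member promoters (70.5%, 60.2 to 79.0) and in 4.77% of all protein-coding promoters. In 55 of the 62 the first word began at positions 1 to 13, counting the TSS base as 1. In 0 of 88 did the initiator C fall on the annotated base, which allows a share of up to 4.18%. TCT words were in 12 of the 19 members with a promoter summit and in 50 of the 69 without. TATCGATA, the DRE, was searched on both strands and found in 26 members (29.5%, 21.0 to 39.8) and 9.23% of all protein-coding promoters. It was in 8 of the 19 members with a promoter summit and 18 of the 69 without.

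The motif 1 core GGTCACACT, on both strands, was in 10 members (11.4%) and 6.07% of all protein-coding promoters, and the E-box CACGTG, a site of Myc and Max, in 7 (7.95%) and 4.20%. Brinker sites (the word GGCGCC, the word GGCGCT, the word GGCGTC or the word GGCGTT, on either strand) were in 23 members (26.1%, 18.1 to 36.2) and 26.6% of all protein-coding promoters. They were in 5 of the 19 members with a promoter summit and 18 of the 69 without. TATAAA on either strand was in 41 members (46.6%) and 45.5% of all protein-coding promoters. GC content of member promoters averaged 37.6 ± 5.29% (SD over 88 promoters) and that of all protein-coding promoters 39.2 ± 7.78% (SD over 13945). Words of 1 motif or of different motifs were allowed to overlap.

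Within 100 bp of the summit itself, a Brinker site was present at 5 of the 21 member promoter summits (23.8%), those of RpL8, RpS12, RpS30 and 1 each of RpS9 and RpS10b. Over all 1505 promoter summits on the arms it was 14.9%. The 3 strongest, at RpL7, RpS2 and RpL27, had none of these words within 100 bp. The DRE was within 100 bp of 8 of the 21 (38.1%) and of 6.31% of all promoter summits, and the motif 1 core of 5 (23.8%) and 1.20%. A match is only a description of the letters, and no test was made.

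**Figure D5:**
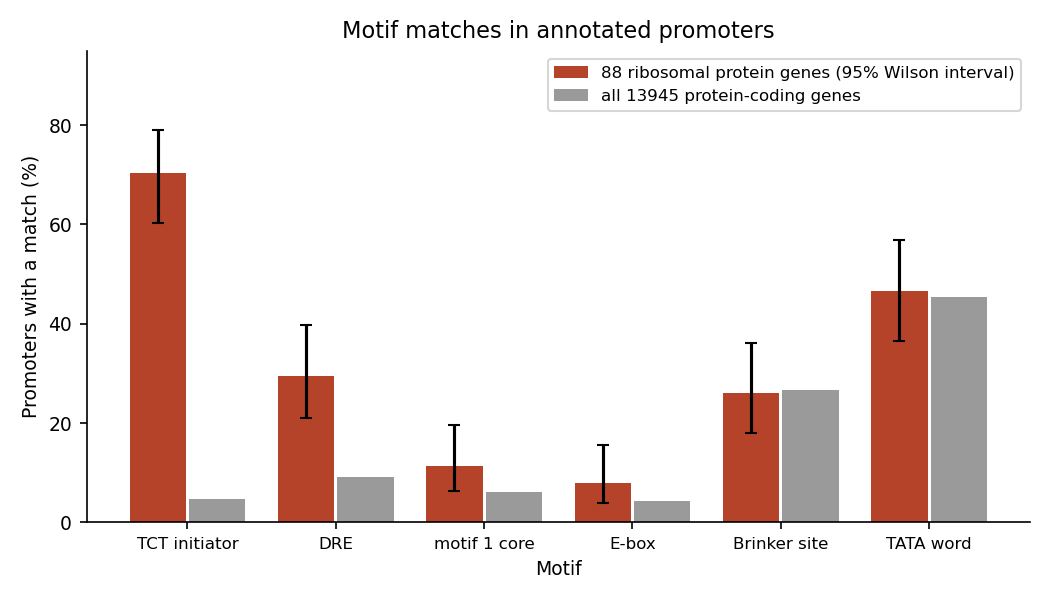
Share of promoters (%) with at least 1 match to each motif, for the 88 ribosomal protein genes (left bars, 95% Wilson interval) and all 13945 protein-coding genes (right bars). The TCT initiator words were in 70.5% of ribosomal protein promoters against 4.77% of all, and the Brinker site in 26.1% against 26.6%.

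Many members share their upstream region with a gene on the opposite strand. Another coding gene began within 1000 bp in the opposite direction for 53 of 88 members (60.2%, 49.8 to 69.8), against 35.6% of all protein-coding genes. This held for 10 of the 19 members with a promoter summit and 43 of the 69 without. At promoters such as RpL7 with Ripalpha, RpLP0 with CG7130 (111 bp), RpS13 with CSN8 (193 bp) and RpS21 with CG3104 (292 bp), a summit cannot be ascribed to 1 of the genes.

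Other genes of ribosome production were counted in the same way. Of all protein-coding genes, 26.9% had a summit within 5 kb and 10.5% at the promoter. Mitochondrial ribosomal protein genes, which encode the separate ribosome of that organelle, had a summit within 5 kb at 21 of 73 (28.8%) and at the promoter of 11 (15.1%). Of 23 matched ribosome biogenesis genes, 6 had a summit within 5 kb (26.1%) and 1, Nnp-1, at its promoter. The 5 kb shares of these lists were close to that of all protein-coding genes. The strongest summits of biogenesis genes were at Nnp-1 (245, nearest to CG31855), the nucleolar phosphoprotein gene Nopp140 (184, nearest to P5CDh1) and the snoRNP protein gene nop5 (176, nearest to Hrb27C). Of 10 RNA polymerase I genes, which serve transcription of ribosomal RNA, 4 had a summit within 5 kb and 2 at the promoter. The strongest was near TAF1C-like, with 746 at the TSS of Fkbp14 and 329 at its own promoter, followed by TAF1B at its own promoter (262) and Polr1H (219.8, nearest to tsl).

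Of 16 genes listed as regulators of ribosomal protein genes or of ribosome supply, 11 had a summit within 5 kb and 7 at the promoter. The same rules gave 26.9% and 10.5% of all protein-coding genes. The list was not matched to all protein-coding genes for gene length. The strongest summits of Myc and Mnt, for example, were 8767 and 5909 bp from the nearest TSS. The strongest were at the promoters of Chro, a chromosomal protein gene (701 pooled, 405 in replicate 3 and 293 in replicate 4), of larp, whose mammalian counterpart LARP1 binds mRNAs that start with a pyrimidine tract (677, 309 and 372 in the same order), and of REPTOR, a transcription factor downstream of TOR (549, 272 and 281). All 3 were stronger than any promoter summit of a ribosomal protein gene. Trf2, the factor that serves TCT promoters, had its strongest summit (223) nearest to its neighbour lawc, with 146 in replicate 3 and 99.8 in replicate 4. Xrp1, a transcription factor active in flies with a ribosomal protein mutation, had 6 summits, the strongest at 219.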

How the data were processed

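ChIP-seq peak lists of 1 group, with biological replicates 3 and 4, were used. Per the sample notes, the authors called peaks and background on dm6 for each replicate and for the pool with a control alignment, and derived the IDR list from them. The sources used here name no aligner, peak caller or IDR cutoff. The deposited signal column was used as listed, to describe and rank peaks; dm3 lists were not used.

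The members and gene lists were chosen with earlier results of these data known. Summits were set beside Ensembl release 115 genes (BDGP 6.54) and the NCBI Release 6 sequence on 6 arms, counting from 1. Replicate values are those of the strongest entry overlapping a peak by 1 bp. Counts carry 95% Wilson intervals (statsmodels 0.14.6), with pandas 2.3.3 in Python 3.11.15. No test was made, since there is 1 group. The assignment of summits was checked on simulated data. Every member with an IDR summit is named, with the 5 strongest promoter entries among the others and the 3 strongest genes of each related list. Trf2, Xrp1, RpLP0-like and the genes with a replicate entry but no pooled entry were singled out after their values were seen. A listed biogenesis name, Ltv1, was not matched. Values of a few members enter the counts but are not reported here, also where this rule would name them.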

Additional observations from a re-analysis of the deposited data

How the results depend on the processing

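Of 74 alternative values, 56 stayed within 1.5 times the reported count, or within the spread of the measure, and 18 moved. Some of the 56 had little room to move, so this count is no measure of robustness. The -like genes that were added have no summit within 5 kb. Placing each peak at its middle instead of its summit changed little by construction. With summits in the gene body only, 3 members (2 large and 1 small subunit genes) and 3 summits remained. Within 1 kb there were 31 summits and 9 large subunit genes. With only peaks at or above the median signal of the arms there were 31 summits, 9 large subunit genes, 10 members with the nearest TSS and 9 with a promoter summit. With the whole pooled list there were 57 members (29 large and 28 small), 253 summits, 34 members with the nearest TSS and 35 with a promoter entry. TCT words were in 53.4% of members within 10 bp of the TSS and in 55.7% with the 5′ end of the gene as TSS. All but the last of these settings admit fewer or more peaks or bases by construction, and the cause of the last was not tested. With only replicate 3 or replicate 4, using its strongest entries, members within 5 kb were 36 to 38, promoter members 21 to 24 and nearest-TSS members 18 to 21. Counting RpL7-like, RpL22-like, RpL24-like and RpS28-like as members left 32, 19 and 17; RpLP0-like was not added. The median signal of member summits was 108 to 123 over its alternatives, of which 1, limited to summits with a member's TSS nearest (119.6), was added after seeing the data. No paired analysis was possible because there is 1 group. Depth, and whether the lists share a scale, are unknown, and most summits are listed at the middle of the peak.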
